A study of Homo sapiens with 41 samples.

Results

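T98G, a human glioblastoma cell line, stops growing when serum is withdrawn and re-enters the cell cycle when it is returned. The comparison described here sets the 6 libraries taken from 350 to 400 min after serum against the 6 taken from 290 to 340 min, and these 12 of the 41 libraries of the time course were taken by their time labels. The question was which genes were still moving at the end of the course, in the G1 phase. Every dish had been starved of serum before it was stimulated with fetal calf serum, and each time point was its own dish, harvested for total RNA that was depleted of rRNA before sequencing. No time point was repeated, so the 6 neighbouring time points of a window stood in for replicates, and p-values here measure the spread between those neighbours and nothing wider. Libraries of 0 to 10 min, 190 to 230 min and 240 to 280 min served as background for the same genes. The cells are 1 line in culture, with no unstimulated dishes kept alongside at the late times.

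The 12 libraries held between 29775023 (340 min) and 56678556 (320 min) counts, with a median of 42664526, and 21629 genes passed the filter and were tested. Of 17 glioma and mesenchymal markers 13 had a mean normalized count of at least 50, led by ANXA2, VIM, S100A6, CD44 and ANXA1. The glial and neural stem cell markers GFAP and SOX2 had means of 1.4 and 0.2, and NES and OLIG2 had means of 30.3 and 46.7. The summed count of this marker list was 266000 to 286000 at 290-340 min and 273000 to 284000 at 350-400 min. Among 24 markers of other cell types, CD3E, RBFOX3 and HBB were at 0 in all 12 libraries, only KRT18, CD68, SNAP25 and ITGAM had a mean of at least 50, and the summed count was 4940 to 6100 in the earlier and 5010 to 5650 in the later window. In such bulk RNA a lower level in every cell and fewer cells with the transcript cannot be told apart.

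The libraries differed in base composition. The median deviation of genes in the top quintile of GC content minus that of the bottom quintile was 0.45, 0.25 and 0.25 on the log2 scale at 300, 310 and 320 min, and −0.24 and −0.43 at 390 and 400 min, while the other 7 libraries lay between −0.18 and 0.06. GC-rich genes therefore read higher in 3 libraries of the earlier window and lower at the end of the later one. Each comparison was fitted both on the counts as deposited and with a per-library correction for GC content, a correction that was added after the data had been seen. Whether the difference in composition arose in the cells or in the libraries was not tested.

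**Figure D1:**
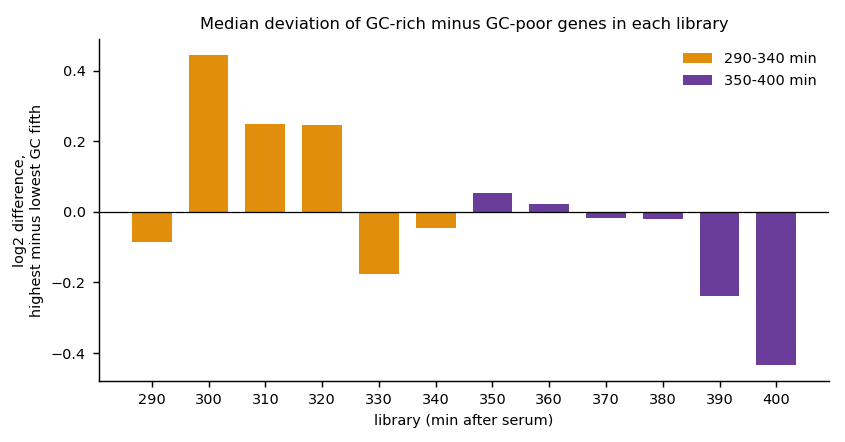
Median log2 deviation of the top quintile of genes by GC content minus that of the bottom quintile (vertical axis) in each of the 12 libraries (horizontal axis, min after serum), with 290-340 min in orange and 350-400 min in purple. The bars run from 0.45 at 300 min to −0.43 at 400 min.

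Serum growth factors act through receptor tyrosine kinases and ERK to switch on immediate early genes within minutes, many of which encode transcription factors or inhibitors of the same pathway. Cyclin D with CDK4 or CDK6, and later cyclin E with CDK2, then phosphorylate the RB family of pocket proteins and release E2F factors, which drive the genes that license replication origins and build the replication fork. CDK inhibitors such as p21, encoded by CDKN1A, and p15, encoded by CDKN2B, hold these kinases back. A growing cell also enlarges its capacity to make ribosomes and protein.

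Between the 2 windows as groups, edgeR's quasi-likelihood test called 7 genes higher (0.0324% of the genes tested) and 30 lower (0.139%) at a Benjamini-Hochberg adjusted p below 0.01. All 37 were protein-coding, and in all 37 the windows did not overlap. That separation was seen in 213 genes with the later window above (0.985% of genes tested) and 257 with it below (1.19%). With the GC correction the step called 263 genes higher (1.22%) and 327 lower (1.51%), and the 37 were among them. The members that rose were led by SPOCK1, a secreted proteoglycan, SEMA7A, a membrane-anchored semaphorin, WWC1, an upstream component of Hippo signalling, and CDC6, which loads the MCM helicase at replication origins. Those that fell included transcription factors (EGR2, ATF3, NFATC2, THRB, MAFF, BHLHE40), secreted factors (CSF2, PDGFB, CCL2) and signalling inhibitors (TNFAIP3, RCAN1, DUSP16, CDKN1A).

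SPOCK1 (chr5:136975298-137598379, GRCh38) had normalized counts of 376 to 536 (median 455) at 290-340 min and 581 to 741 (median 632) at 350-400 min, a step of 0.51 ± 0.09 (log2, SE, n = 6 against 6, adjusted p = 0.00739). SEMA7A went from 322 to 420 (median 384) to 435 to 535 (median 519), by 0.41 ± 0.07 (adjusted p = 0.0066). CDC6 (chr17:40287879-40304657) went from 411 to 449 (median 424) to 470 to 645 (median 565), by 0.38 ± 0.07 (adjusted p = 0.00926). All 6 later libraries lay above all 6 earlier ones in each of these genes. The remaining 4 higher genes, WWC1, LPXN, RGMB and SLC9A7, had steps of 0.40, 0.36, 0.32 and 0.30.

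ATF3 (chr1:212565334-212620777), a transcription factor of the stress and serum response, had counts of 419 to 628 (median 507) in the earlier window and 270 to 356 (median 287) in the later, a step of −0.77 ± 0.11 (adjusted p = 0.00552). CSF2, which encodes the cytokine GM-CSF, went from 206 to 269 (median 247) to 136 to 187 (median 158), by −0.62 ± 0.09 (adjusted p = 0.00241). TNFAIP3, the NF-kappaB inhibitor A20, went from 1670 to 2130 (median 1930) to 1220 to 1550 (median 1310), by −0.49 ± 0.07 (adjusted p = 0.00241). No later library of these genes reached the lowest earlier one. Below a mean count of 50, and named only because they had the lowest steps, EGR2 fell by 1.18 and ZBTB7C by 0.83 on the log2 scale. RCAN1, an inhibitor of calcineurin, NFATC2, a factor that calcineurin activates, and PDGFB, a platelet-derived growth factor chain, had steps of −0.51, −0.59 and −0.55.

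Single libraries and the scaling decided which of the 37 passed. Without the 390 min library 0 were called by edgeR, and without the 380, 300, 310, 400, 290, 370 or 320 min library 1, 8, 9, 9, 10, 10 or 15 of the 37 were; with spike-in size factors 0 genes were higher (1297 at an unadjusted p below 0.05) and 3 lower. DDIT4 and CHAC1 had steps of −1.38 and −1.15, but their counts also moved inside the windows, and their adjusted p-values were 0.0253 and 0.0261.

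Genes that drifted steadily were therefore followed with 1 slope over the 12 libraries, expressed per 60 min, the distance between the centres of the windows. A gene is said below to have risen or fallen when this trend passed the threshold in the same direction both without and with the GC correction. By this rule 576 genes rose (2.66% of those tested) and 634 fell (2.93%). Most of the changes were small: the median trend was 0.24 log2 per 60 min in the genes that rose and −0.27 in those that fell. With the GC correction these medians were 0.18 and −0.24, and 14 and 64 genes passed 0.5 in either direction in both fits. Trends of single genes and list medians below are given without the correction unless it is named. The genes were largely mRNAs, with 526 protein-coding genes rising (3.75% of 14043 tested) and 588 falling (4.19%), against 20 of 3508 lncRNAs rising (0.57%) and 26 falling (0.741%). The median of the mean normalized counts was 14.2 for tested lncRNAs and 565 for tested protein-coding genes, and the part of depth in this gap was not tested.

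**Figure D2:**
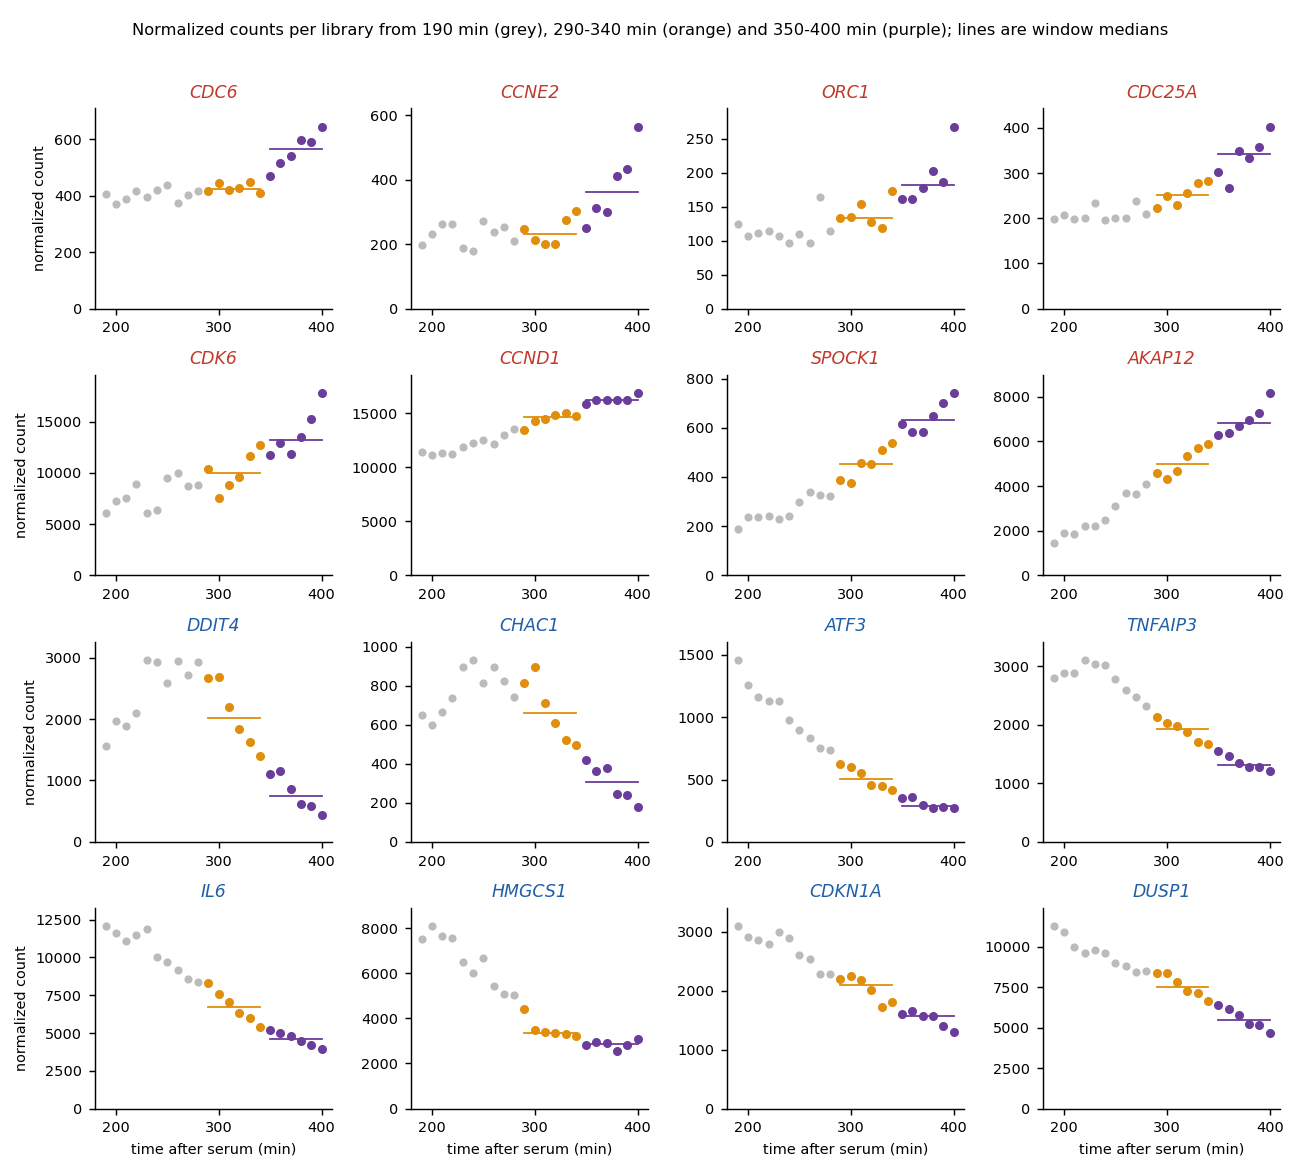
Normalized counts (vertical axes, from 0) of 16 genes that rose (red titles) or fell (blue titles), one point per library from 190 to 400 min after serum (horizontal axes). Grey points are libraries before 290 min, orange 290-340 min and purple 350-400 min, and lines are window medians; DDIT4 dropped from a median of 2020 to 742 and CDC6 climbed from 424 to 565.

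How many genes passed depended on the ends of the range. Without the 400 min library 211 rose and 397 fell, without the 390 min library 330 and 421, without 300 or 310 min 368 or 355 rose, and without the 290 min library 1000 rose. Spike-in size factors shifted the median trend of all genes by 0.12 log2 per 60 min (0.09 for the step). An upward shift keeps rising genes above 0, so the sign of the 576 could not be checked this way. Of the 634 falling genes 620 had a trend below 0 with these factors. Spike-in scaling cut the calls of the uncorrected trend from 977 to 45 falling and from 936 to 665 rising. With total counts the shift was −0.02, and 338 were called rising and 930 falling.

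Some genes of the G1/S transition rose while the CDK inhibitor genes CDKN1A and CDKN2B fell. Of 18 tested G1 cyclins, CDKs and inhibitors, CCNE2, CDC25A, CDK6 and CCND1 rose (22.2%) and CDKN2B and CDKN1A fell (11.1%). The shares over all genes were 2.66% and 2.93%, or 4.07% and 4.28% at a mean of at least 50. The list's median trend was −0.01. In the step itself CDKN1A was the 1 member called, and DESeq2 called 5 rising and 3 falling trends among them. CCND1 (chr11:69641156-69654474), which encodes cyclin D1, had counts of 13500 to 15000 (median 14600) and then 15800 to 16900 (median 16300), with no overlap and a trend of 0.16 ± 0.03 per 60 min (adjusted p = 0.000188). CDK6, its partner kinase, went from 7560 to 12700 (median 9950) to 11700 to 17800 (median 13200), and its windows overlapped (0.49 ± 0.08, adjusted p = 0.00136). CCNE2, which encodes cyclin E2, went from 200 to 304 (median 230) to 249 to 565 (median 362), with a trend of 0.71 ± 0.10 (adjusted p = 0.000142) that was 0.55 with the GC correction. Its 400 min library was the highest of all 41, as was that of CCND1, CDK6 and CDC25A. These counts carry no GC correction, and 400 min had the lowest GC difference of the 12 libraries (−0.43). Within the windows CDK6 was lowest at 300 min, where that difference was highest (0.45).

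CDC25A, the phosphatase that activates CDK2, had a median of 252 in the earlier and 341 in the later window (trend 0.43 ± 0.05, adjusted p = 1.39e-05). CDKN1A (chr6:36676460-36687337) fell from 1730 to 2240 (median 2090) to 1300 to 1650 (median 1560), by 0.42 per 60 min (SE 0.04, adjusted p = 9.09e-08), after a highest count of 3570 at 110 min. CDKN2B fell from 1570 to 2270 (median 1680) to 1190 to 1440 (median 1280), which is below its mean of 2970 at 0 to 10 min. Both inhibitors had windows that did not overlap. The members that did not pass both tests included CCNE1, with medians of 374 and 401, CDK2, with a trend of 0.09, CDK4, with 2590 and 2610, and CDKN1B (p27), with 447 and 448. CCND3, CDK7, CCNH, SKP2 and CKS1B, with trends of −0.17 (CCND3) to 0.28 (CCNH), did not pass both either. CDKN1B had a mean of 2630 at 0 to 10 min and of 489 at 240 to 280 min.

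**Figure D3:**
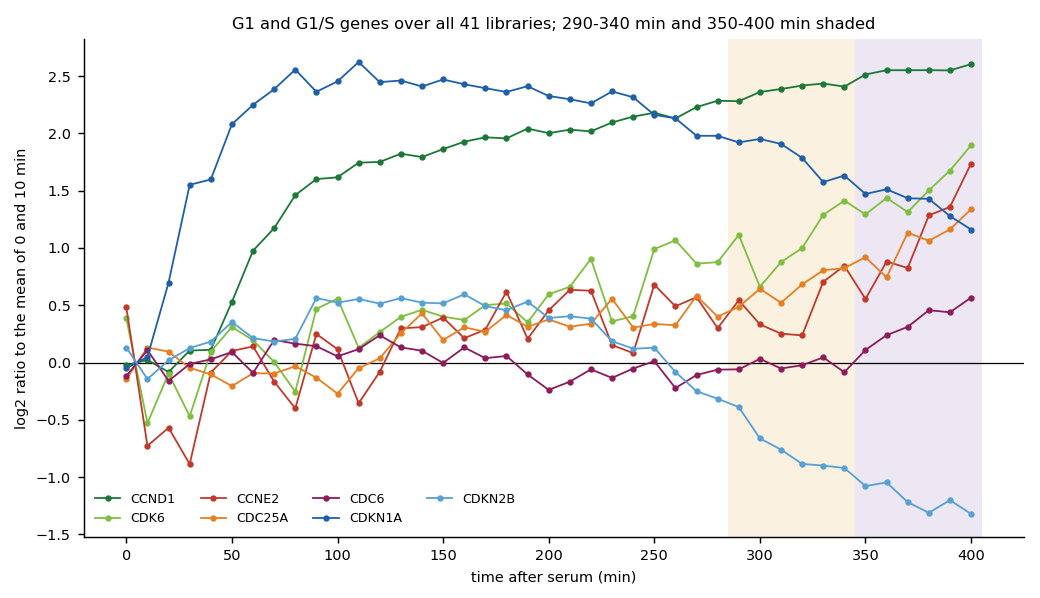
Log2 ratio of the normalized count in each of the 41 libraries to the mean of 0 and 10 min (vertical axis) against time after serum (horizontal axis, min) for 7 cell cycle genes, one line each, with the 2 windows shaded. CDC6 stayed near 0 until 340 min and then rose, CCND1 and CDK6 rose through both windows, and CDKN1A and CDKN2B declined.

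Of 20 pocket proteins, E2F factors and their partners, LIN9 and RBL1 rose (10.0%) and TFDP2 fell (5.0%). Over all genes with a mean of at least 50 the shares were 4.07% and 4.28%, so the falling share was near that of all such genes. RBL1, which encodes the pocket protein p107, had medians of 290 and 361 (trend 0.33 ± 0.06, adjusted p = 0.000424). E2F1 had medians of 279 and 317, and its trend passed with the GC correction (0.25, adjusted p = 0.000182) and not without it (0.12, adjusted p = 0.105). E2F3 and E2F7 had medians of 814 and 860 and of 368 and 393 and passed neither. RB1, RBL2, E2F4, E2F5, E2F6, TFDP1, LIN37, LIN52, LIN54, MYBL1, MYBL2 and FBXO5, with trends of −0.10 (MYBL2) to 0.28 (E2F5), did not pass both.

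Replication licensing and fork genes had the largest rising share of the 44 lists: 14 of 48 rose (29.2%) and 0 fell in edgeR, where an unadjusted p below 0.05 in both fits was reached by 29 rising and 0 falling members and DESeq2 called 22 and 0. Their median trend was 0.17 log2 per 60 min, 0.14 with the GC correction and 0.29 with spike-in size factors, beside −0.01 over all genes. The 14 included the origin recognition subunits ORC1, ORC3, ORC5 and ORC6, the loader CDC6, the helicase subunit MCM5 and its activator MCM10. The others were the kinase CDC7 with its partner DBF4, and at the fork PCNA, FEN1, RPA2, CLSPN and UHRF1. Members that did not pass both tests included CDT1, GINS2, MCM3, MCM6, MCM7, POLA1 and POLE. ORC1 went from 119 to 173 (median 134) to 161 to 268 (median 181), with a trend of 0.47 ± 0.08 (adjusted p = 0.000474). ORC6 went from 160 to 204 (median 179) to 219 to 254 (median 230), with no overlap (0.32 ± 0.06, adjusted p = 0.00057). MCM5 went from 384 to 463 (median 426) to 468 to 556 (median 528), also with no overlap (0.25 ± 0.05, adjusted p = 0.00176). Leaving out 1 library at a time left between 6 and 17 members rising.

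In 3 of these genes the promoter holds an E2F-type element, and the sequences are shown because the list is a textbook set of E2F targets. The 250 bases before the RefSeq start (GRCh38.p14) are given 5′ to 3′ on the strand of the gene, with the element in capitals, for PCNA, the sliding clamp of the fork (chr20:5126623-5126872, minus strand), UHRF1, a reader of hemimethylated DNA (chr19:4909251-4909500, plus strand), and ORC3 (chr6:87589885-87590134, plus strand).
PCNA: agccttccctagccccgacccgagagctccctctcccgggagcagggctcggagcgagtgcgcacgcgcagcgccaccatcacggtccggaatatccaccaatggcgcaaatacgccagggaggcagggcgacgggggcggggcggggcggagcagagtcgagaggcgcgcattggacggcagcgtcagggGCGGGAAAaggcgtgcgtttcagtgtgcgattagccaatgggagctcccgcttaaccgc
UHRF1: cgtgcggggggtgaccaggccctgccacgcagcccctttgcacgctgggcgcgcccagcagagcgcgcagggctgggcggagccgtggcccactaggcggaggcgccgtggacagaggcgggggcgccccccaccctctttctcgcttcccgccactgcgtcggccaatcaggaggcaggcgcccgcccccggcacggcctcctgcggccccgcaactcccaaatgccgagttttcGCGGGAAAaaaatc
ORC3: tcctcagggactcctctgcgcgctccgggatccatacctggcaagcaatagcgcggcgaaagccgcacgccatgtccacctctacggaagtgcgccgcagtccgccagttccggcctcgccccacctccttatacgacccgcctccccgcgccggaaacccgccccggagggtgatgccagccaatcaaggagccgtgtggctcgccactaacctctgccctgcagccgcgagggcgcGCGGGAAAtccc
The letters searched were TTTCCCGC, TTTGGCGC, TTTGCCGC and TTTCGCGC on both strands, and in all 3 genes the match was TTTCCCGC read on the opposite strand. The matches began 59, 14 and 12 bases before the start. At least 1 of these words stood in 2.79% of 27305 promoters of this length, in 13 of the 42 licensing and fork genes with a promoter in the table (31.0%) and in 3 of the 12 that rose. The share was 4.34% over the promoters of tested genes and 6.86% over those of all rising genes. A match is a description of the letters and was not tested as a site. PCNA had medians that did not overlap between the windows and a trend of 0.20 ± 0.04 per 60 min (adjusted p = 0.000518), UHRF1 one of 0.19 and ORC3 one of 0.26.

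Genes used later in the cell cycle were examined beside these. Of 30 DNA repair and checkpoint genes RMI1, USP1, TOPBP1, XRCC2, PALB2 and RAD17 rose (20.0%), with a median trend of 0.14, and between 1 and 10 did when 1 library was left out. Of 28 nucleotide synthesis genes 1, GART, rose (3.57%, near the 4.07% of all genes with a mean of at least 50). Of 44 G2 and mitosis genes PLK4, the kinase of centriole duplication, and TTK rose (4.55%) and CDC25B fell (2.27%), with a median trend of 0.06. The rising share was again near that of all genes with such a mean. Replication-dependent histones, whose transcripts accumulate in S phase, showed 6 of 47 falling and 0 rising in edgeR (27 falling and 0 rising at an unadjusted p below 0.05 in both fits, 17 and 0 in DESeq2), with a median of −0.18. Without 1 library between 1 and 7 histones fell, and histone counts share reads between near-identical genes. The genes with the largest rises outside these lists included FAM111B and ZNF367, with trends of 0.81 and 0.61. FAM111B had medians of 75.7 and 119 and ZNF367 of 112 and 165.

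Genes of ribosome and protein production rose in part. Of 54 ribosome biogenesis factors 9 rose (16.7%): NOP58, UTP20, DDX21, NCL, POLR1B, NOLC1, DDX18, GNL3 and TSR1. NCL, which encodes nucleolin, went from 27500 to 29900 (median 28800) to 31600 to 35300 (median 32500), with no overlap and a trend of 0.18 ± 0.03 (adjusted p = 6.84e-05). Of 22 chaperones 6 rose (27.3%), among them the chaperonin subunits CCT2, CCT5, CCT6A and CCT8, as did 6 of 35 translation initiation factors (17.1%), 5 of 47 nuclear transport genes (10.6%) and 3 of 20 aminoacyl-tRNA synthetases. Leaving out 1 library moved these counts to between 3 and 10 for ribosome biogenesis, 2 and 6 for chaperones, 1 and 6 for initiation factors, 2 and 6 for transport and 1 and 3 for synthetases. The 78 cytosolic ribosomal proteins had 0 members in either direction in edgeR, with 8 rising and 0 falling at an unadjusted p below 0.05 in both fits and 6 and 0 in DESeq2, and a median trend of 0.01. The 31 proteasome subunits likewise had 0, with 2 rising and 0 falling at that unadjusted p and 4 and 0 in DESeq2. ODC1, the first enzyme of polyamine synthesis, went from a median of 5400 to 6070 with no overlap (0.19 ± 0.03, adjusted p = 0.000116), and AMD1 and SMS of the same pathway rose while PAOX, ARG2 and SAT1, of which SAT1 and PAOX break polyamines down, fell.

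**Figure D4:**
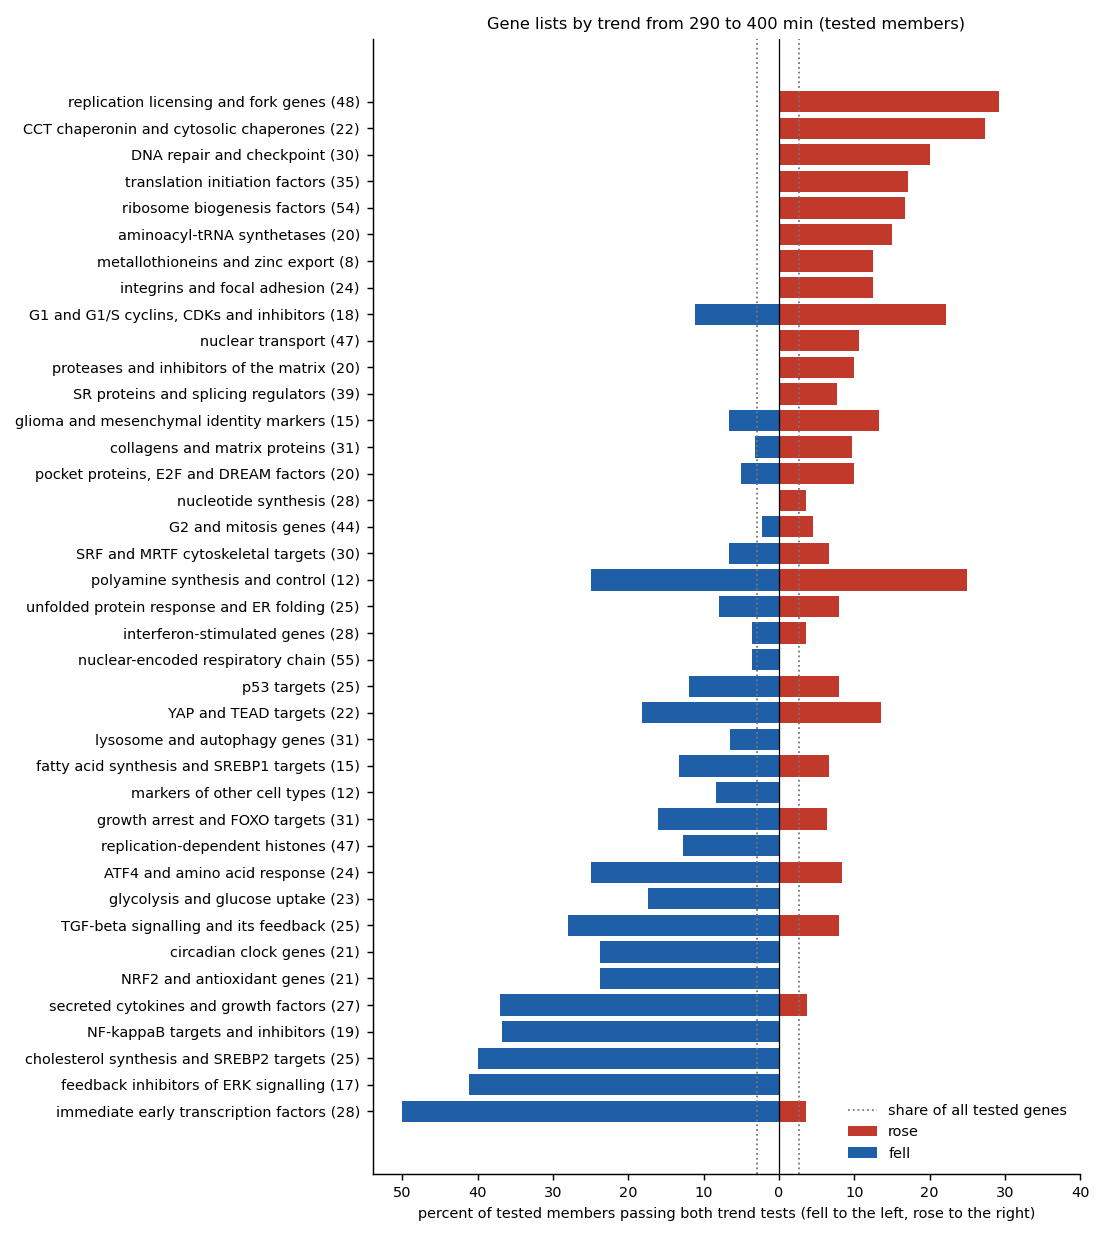
Percent of the tested members of each gene list (rows, number tested in parentheses) that rose (red, to the right) or fell (blue, to the left) in both trend tests, for lists with at least 1 such member. Dotted lines mark the shares over all tested genes (2.66% rising and 2.93% falling); immediate early transcription factors had the largest falling share and replication licensing genes the largest rising share.

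Of 28 tested immediate early transcription factors 14 fell (50.0%) and 1, HES1, rose, and their median trend was −0.35 log2 per 60 min (−0.28 with the GC correction and −0.23 with spike-in size factors). The falls covered the AP-1 members JUNB, JUND, FOSB and FOSL2, the zinc finger factors EGR1, EGR2, KLF4 and KLF6, the orphan receptors NR4A1 and NR4A3, and ATF3, MAFF, SRF and ID1. JUNB went from 854 to 1310 (median 1160) to 488 to 885 (median 761) with an overlap between windows (−0.68 ± 0.07, adjusted p = 1.24e-05). KLF6 went from 1200 to 1520 (median 1360) to 863 to 1180 (median 983) with no overlap (−0.45 ± 0.04, adjusted p = 1e-07). These values were the tail of much higher early counts: ATF3 had reached 11200 at 40 min and JUNB 6780 at 80 min. HES1, a repressor downstream of Notch that had reached 4590 at 60 min, went against the list, from 218 to 353 (median 312) to 372 to 426 (median 400).

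Serum response elements, bound by SRF, and CRE sites, bound by CREB and ATF factors, are the known routes to this group, so 3 promoters of falling members that hold one are shown in the same way: EGR1 (chr5:138465229-138465478, plus strand) and SRF itself (chr6:43171019-43171268, plus strand) with CArG boxes in capitals, and MAFF (chr22:38201744-38201993, plus strand) with a CRE.
EGR1: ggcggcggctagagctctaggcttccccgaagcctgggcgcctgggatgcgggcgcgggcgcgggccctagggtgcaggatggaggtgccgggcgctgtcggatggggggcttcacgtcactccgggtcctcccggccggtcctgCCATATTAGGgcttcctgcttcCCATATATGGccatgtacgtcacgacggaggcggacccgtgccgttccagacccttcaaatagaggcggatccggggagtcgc
SRF: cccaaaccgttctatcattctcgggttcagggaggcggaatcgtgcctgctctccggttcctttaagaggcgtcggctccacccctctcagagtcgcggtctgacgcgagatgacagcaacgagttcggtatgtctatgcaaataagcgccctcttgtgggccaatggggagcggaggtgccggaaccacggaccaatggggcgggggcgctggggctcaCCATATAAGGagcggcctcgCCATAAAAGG
MAFF: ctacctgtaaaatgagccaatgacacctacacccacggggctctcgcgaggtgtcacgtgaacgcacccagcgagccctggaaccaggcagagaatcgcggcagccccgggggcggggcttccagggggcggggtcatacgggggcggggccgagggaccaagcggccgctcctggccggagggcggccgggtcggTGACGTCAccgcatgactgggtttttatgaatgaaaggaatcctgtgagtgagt
The CArG box, searched on both strands, stood in 1.14% of all promoters of this length and 1.03% of those of tested genes. It stood in 2 of the 14 falling factors and in 2.33% of all falling genes with a promoter in the table. The CRE, searched as TGACGTCA, which reads the same on both strands, stood in 1.77% of all promoters and in 2 of the 14, JUND and MAFF. Its share was 2.88% over the promoters of tested genes and 3.81% over those of all falling genes. EGR1 had a trend of −0.39 and SRF one of −0.31 per 60 min, and MAFF fell by 0.45 in the step, from a median of 1890 to 1380.

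Of 17 genes listed under ERK feedback 7 fell (41.2%): ERRFI1, which blocks the EGF receptor, the MAP kinase phosphatases DUSP1, DUSP5, DUSP6 and DUSP8, SPRY4 and IER3. Their list median of −0.07 became 0.06 with spike-in size factors. ERRFI1 went from 44400 to 58900 (median 51600) to 30900 to 40200 (median 35100) and DUSP1 from 6640 to 8390 (median 7540) to 4690 to 6390 (median 5490), both with no overlap and trends of −0.54 ± 0.03 (adjusted p = 2.01e-10) and −0.46 ± 0.03 (adjusted p = 2.01e-10). Within the 6 later libraries alone DUSP1 still fell, by 0.09 per 10 min.

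Some secreted signals and NF-kappaB targets fell too. Of 27 cytokines and growth factors 10 fell (37.0%) and 1, BDNF, rose, with a median trend of −0.18 (−0.07 with spike-in size factors). Of 19 NF-kappaB targets and inhibitors 7 fell (36.8%) and 0 rose in edgeR (8 and 0 at an unadjusted p below 0.05 in both fits, 9 and 0 in DESeq2), with a median of −0.17 (−0.05). The lists share CCL2 and CXCL8, and NF-kappaB and ERK feedback lists share IER3. IL6 (chr7:22725884-22732002) went from 5430 to 8290 (median 6700) to 3960 to 5230 (median 4620), with no overlap and a trend of −0.56 ± 0.03 (adjusted p = 1.55e-11). CCL2 (chr17:34255274-34257208), a monocyte chemokine, went from 61700 to 70800 (median 68700) to 49300 to 60600 (median 55300), a step of −0.30 ± 0.05 (adjusted p = 0.00701). LIF went from a median of 8030 to 5370, and GDF15 from 261 to 357 down to 136 to 236, each with no overlap. Both IL6 and CCL2 were still above their means of 164 and 6930 at 0 to 10 min.

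Among protein-coding genes whose mean count was 100 or more, the steepest falling trends were those of DDIT4 and CHAC1, of the ATF4 program, which responds to amino acid shortage and other stress. DDIT4 (chr10:72273919-72276036), an inhibitor of mTORC1, went from 1400 to 2690 (median 2020) to 443 to 1160 (median 742), with a trend of −1.42 ± 0.06 per 60 min (adjusted p = 4.33e-12). CHAC1 (chr15:40952962-40956512), which degrades glutathione, went from 495 to 895 (median 663) to 178 to 421 (median 306), with a trend of −1.18 ± 0.06 (adjusted p = 2.63e-11). SESN2, another brake on mTORC1, went from 919 to 1230 (median 1150) to 501 to 885 (median 707), with a trend of −0.69 ± 0.06 (adjusted p = 9.4e-08). None of the 3 overlapped between windows. Of 24 genes of the list 6 fell (25.0%) and 2 rose, the latter being PSAT1 and MTHFD2, enzymes of serine and one-carbon metabolism, so the list did not move one way, and its median of −0.07 was 0.06 with spike-in size factors.

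Inside the later window alone, the slope test called 5 genes falling (0.0231% of those tested): DDIT4 by 0.29, CHAC1 by 0.24, SAMD11 by 0.20, SESN2 by 0.18 and DUSP1 by 0.09 log2 per 10 min. It called 0 rising, where 1728 had a rising slope at an unadjusted p below 0.05 and DESeq2 called 2. In the earlier window the test called 3 falling (0.0139%), namely DDIT4 by 0.20, NPAS3 by 0.17 and IL6 by 0.12 per 10 min, and 0 rising, with 687 at an unadjusted p below 0.05 and 3 in DESeq2. Leaving out the 290 min library raised the later falling count to 223 and brought 769 rising genes, while leaving out 350, 360, 390 or 400 min left 1.

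To see which genes had changed course, the slope over 290-400 min was compared with that over 190-280 min in 1 model, a comparison added after the data had been seen. The slope became more upward in 189 genes (0.874%) and more downward in 301 (1.39%) in both fits. In the ATF4 list the slope of 12 of 24 became more downward, including ASNS, TRIB3 and ATF4 itself, and the list's median GC-corrected slope went from 0.27 to −0.07 log2 per 60 min. The GC-corrected slope before 290 min and its change after were 0.56 and −1.86 for DDIT4, 0.27 and −1.32 for CHAC1 and 0.63 and −1.21 for SESN2. PSAT1 and MTHFD2, which kept rising, did so more slowly, with changes of −0.49 and −0.39. The slopes of 9 of 19 NF-kappaB genes and 10 of 27 cytokines also became more downward, with changes of −0.93 for CXCL8 and −0.78 for TRAF1, and the list medians went from 0.15 to −0.17 and from 0.00 to −0.15. Replication licensing genes went from a median slope of 0.01 to 0.14, and of these PCNA passed the test of the change itself (0.21 per 60 min with the GC correction).

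**Figure D5:**
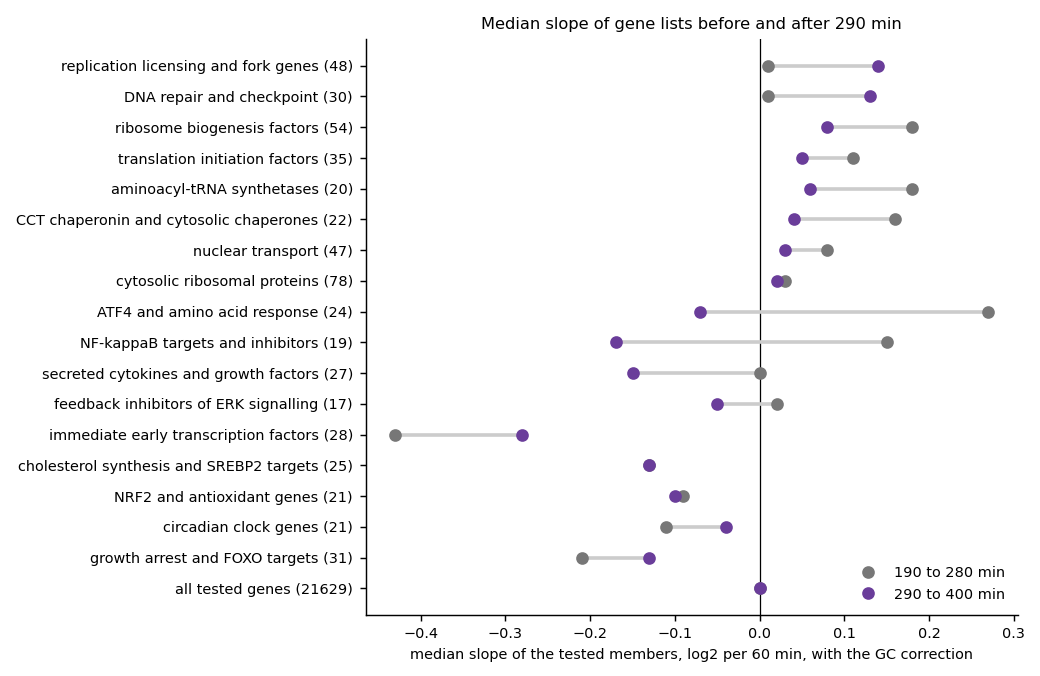
Median GC-corrected slope (horizontal axis, log2 per 60 min) of the tested members of 17 gene lists and of all tested genes, over 190-280 min (grey) and 290-400 min (purple), with the number of genes in parentheses. The ATF4 list moved from 0.27 to −0.07 and the licensing list from 0.01 to 0.14, while the median of all genes stayed at 0.00.

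Some cholesterol synthesis genes fell. Of 25 targets of SREBP2, a transcription factor of this pathway, 10 fell (40.0%) and 0 rose in edgeR (16 and 0 at an unadjusted p below 0.05 in both fits, 13 and 0 in DESeq2). The median GC-corrected slope was −0.13 both before and after 290 min (−0.18 after it without the correction). Spike-in size factors gave a median of −0.04. HMGCS1, an early enzyme of the pathway, went from 3230 to 4400 (median 3370) to 2550 to 3090 (median 2870), with a trend of −0.27 ± 0.05 (adjusted p = 0.00164). Its windows did not overlap, and both medians were below the mean of 5730 at 0 to 10 min. INSIG1, a sterol sensor, had a trend of −0.33.

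Other metabolic and signalling groups fell in part. Of 21 NRF2 and antioxidant genes 5 fell (23.8%, or 2 to 6 without 1 library), led by GCLC, the catalytic subunit of glutathione synthesis, whose median went from 3700 to 3050. Of 21 clock genes 5 fell (23.8%), among them BHLHE40, NFIL3 and PER2, as did 4 of 23 glycolysis genes, led by the glucose transporter SLC2A3 with medians of 583 and 442. The medians of these 3 lists, −0.12, −0.11 and −0.08, were 0.02, 0.01 and 0.05 with spike-in size factors. Of 31 growth arrest and FOXO targets 5 fell, including CITED2, while FBXO32 and TXNIP rose. Of 25 TGF-beta genes 7 fell, including the inhibitors SMAD6, SMAD7 and BAMBI, and LTBP1 and SMURF2 rose. Of 22 YAP targets CCN1, CCN2, LATS2 and WTIP fell and NT5E, DOCK5 and CRIM1 rose.

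Matrix and surface genes moved in both directions. LOX, which cross-links collagen, went from 11700 to 16200 (median 14200) to 16300 to 19700 (median 16600), just without overlap (0.30 ± 0.05, adjusted p = 0.000879). COL8A1 and LAMC1 also rose and COL3A1 fell among 31 matrix genes, where the uncorrected trend alone called 3 rising and 7 falling and DESeq2 4 and 8 and the median was −0.03, and LIMS1, ITGA2 and ITGB1 rose among 24 integrin and adhesion genes. AKAP12, a scaffold of protein kinase A, went from 4310 to 5890 (median 5000) to 6270 to 8160 (median 6830), against a mean of 27.5 at 0 to 10 min. The growth factor receptors MET and EGFR, both listed as glioma markers, rose with trends of 0.38 and 0.17, and PDGFRB fell. The 13 tubulins, 33 cilium and Hedgehog genes and 13 mitochondrial mRNAs had 0 members in either direction in edgeR, with 4, 10 and 4 falling and 0, 2 and 0 rising at an unadjusted p below 0.05 in both fits and 2, 5 and 0 falling and 0, 1 and 0 rising in DESeq2.

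Few lncRNAs moved. The largest rises past a mean of 50 were ENSG00000260966 (chr11:103050687-103055799), with medians of 90.3 and 129 and a trend of 0.62 ± 0.11 (adjusted p = 0.000511), and ENSG00000261786 (chr3:44117299-44122365), with medians of 729 and 1040 and a trend of 0.50 ± 0.06 (adjusted p = 1.22e-05). Their windows overlapped. TRHDE-AS1, THAP9-AS1 and ENSG00000240207 followed with trends of 0.47, 0.42 and 0.37. KIF23-AS1, LINC02989, LINC01500, ENSG00000260604 and FOXP1-DT fell, with trends of −0.56, −0.45, −0.44, −0.43 and −0.40. The share of all counts held by lncRNAs was 3.85% to 4.32% in the earlier and 3.92% to 4.43% in the later window, and none of 10 gene classes differed in share (exact permutation test over the libraries, two-sided, lowest p = 0.0714 for mitochondrial mRNA, adjusted p = 0.714, n = 6 against 6, with 0.00216 the smallest p the design allows).

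Most genes that moved late had moved the same way before. The step from 190-230 to 240-280 min, which shares no library with the windows compared here, called 9 genes higher (0.0416%) and 17 lower (0.0786%) on its own, but its GC-corrected sign matched in 497 of the 576 rising genes (86.3%, median 0.13), where 50.5% of all genes tested had a positive sign. The same held for 517 of the 634 falling genes (81.5%, median −0.13), where 49.5% of all genes had a negative sign. In 510 of the rising genes the highest of all 41 libraries lay within 350-400 min, which their selection for a rise also favours. Of the 576 rising genes 473 (82.1%) moved further from their level at 0 to 10 min. The falling genes were divided, with 353 (55.7%) moving further from that level and 281 (44.3%) moving back towards it. The further share was 54.6% with 0 min alone and 56.9% with 10 min alone. Of the 634 falling genes, 415 had their lowest library of the course within 350-400 min, which their selection for a fall also favours. In 227 the highest library lay between 20 and 40 min. None of these shares was computed over all tested genes.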

How the data were processed

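Total RNA depleted of rRNA from T98G cells was sequenced at 41 time points. The authors trimmed adapters with cutadapt 1.11, aligned reads with STAR 2.5.2a to GRCh38 and deposited counts per gene from featureCounts, by strand over GENCODE 29 exons, each read adding 1 to all genes it maps to or overlaps. Depth was 29775023 to 56678556 counts in the 12 libraries compared, and p-values cover the spread between neighbouring libraries.

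Genes were tested under the study's filter, which asks for a count above 10 in 1 or more libraries and above 2 in 3 or more successive ones, and 21629 remained. Deposited counts were tested in edgeR 4.0.16 (R 4.3.3, limma 3.58.1) with median-of-ratios size factors over 41 libraries, robust quasi-likelihood dispersions and a Benjamini-Hochberg adjusted p below 0.01, for the step between windows, slopes within them, 1 trend over both and the earlier step. A smooth of each library's log2 deviation on the GC content of the longest transcript was used as an offset in the corrected fits. Positions and classes came from GENCODE 44. The fits were tested on simulated data. Alternatives changed the scaling (TMM, spike-ins, total counts), the filter, the test (DESeq2 1.42.0, limma-voom, a spline), the windows, the threshold and the libraries.

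The comparison and the 44 gene lists were chosen with earlier results of these data known. Named genes are, among called genes, the 15 protein-coding ones that changed most each way (mean count 100 or more), the 5 lncRNAs each way and up to 4 members per list (mean 50 or more), then all G1/S and E2F genes with a mean of 50 or more, called or not, and the steepest slopes. Because the step called few genes, the same rule was also applied to the trend, an addition made after values were seen, and some list members are named as members only. Of the listed genes SOD2, DDX58, H2AC18, H3C2 and H3C3 were not found by symbol. Some list members are counted but not reported here by name.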

Additional observations from a re-analysis of the deposited data

Results flagged for a closer look

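The values of 28 genes, 10 class shares, the total count and the GC difference were searched for a single library far from the other 5 of its window. Of 80 windows 3 held one, where chance gives about 1 in 20. The mitochondrial RNA share was 0.116% at 320 min beside 0.0725% to 0.088% in the rest of its window (gap over range 0.641). MCM5 had 468 normalized counts at 350 min beside 523 to 556 (0.628). HMGCS1 had 4400 at 290 min beside 3230 to 3490 (0.779).

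The slope of 8 of these genes differed between 190-280 and 290-400 min by the test of the change itself (edgeR, Benjamini-Hochberg adjusted over all genes). The change in log2 per 60 min was −1.97 for DDIT4 (adjusted p = 8.47e-09), −1.45 for CHAC1 (5.36e-08), −0.73 for HES1 (0.000104), −0.51 for AKAP12 (1.77e-06), −0.46 for PDGFB (0.00098), −0.39 for CCL2 (8.61e-07), −0.34 for ERRFI1 (2.12e-05) and −0.28 for TNFAIP3 (0.00438). With the GC correction the changes were −1.86, −1.32, −0.71, −0.51, −0.35, −0.40, −0.37 and −0.27. HES1 and AKAP12 were rising in both periods and rose more slowly in the later one, while DDIT4, CHAC1 and CCL2 went from a rise to a fall.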

How the results depend on the processing

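The number of genes past the threshold in the step (7 higher, 30 lower) moved with most choices. DESeq2 called 173 and 282, the GC correction 263 and 327, no filter 97 and 216, 10 windows over all libraries 57 and 163, a spline over all libraries 1422 and 1675, 290-330 against 360-400 min 18 and 74, an adjusted p below 0.05 198 and 344, a mean count of at least 50 1 and 15, spike-in size factors 0 and 3, and leaving out the 300 and 340 min libraries together 1 and 10. Limma-voom and the filter over the 12 libraries called 4 higher each, and total counts 112 lower. Leaving out 1 library gave 0 to 40 higher and 0 to 95 lower, and with the GC correction 93 to 371 and 110 to 460.

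The uncorrected trend called 936 rising and 977 falling genes, DESeq2 1505 rising, total counts 338 rising and spike-in size factors 45 falling. Leaving out 1 library gave 246 to 2287 rising and 430 to 1804 falling, 664 to 1391 rising with the GC correction, and 211 to 1000 rising and 397 to 664 falling in both fits. The change of slope was called more upward in 367 and more downward in 533 genes by the GC-corrected fit alone.

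Within 350-400 min DESeq2 called 2 rising and 14 falling slopes, the GC correction 7 and 21 and spike-in size factors 2 and 0, and leaving out 1 library 0 to 769 and 1 to 223. Within 290-340 min DESeq2 called 3 and 14, the GC correction 16 and 56, spike-in size factors 0 falling, and leaving out 1 library 0 to 1225 and 0 to 454. The earlier step (9 higher, 17 lower) became 247 and 336 in DESeq2, 215 and 223 with the GC correction, 38 and 62 with spike-ins, 0 and 0 at a mean count of at least 50, and 0 to 228 and 0 to 277 without 1 library. The causes were not tested.

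No class share passed its test, and leaving out 1 library changed the sign of 6 differences, in percentage points −0.0051 to 0.0035 for mitochondrial RNA, −0.669 to 0.0632 for other genes, −1.02 to 0.197 for protein-coding genes, −0.0373 to 0.006 for pseudogenes, −0.0828 to 0.0318 for snRNA and −0.258 to 0.0609 for unmatched genes. With 1 library per time point the design has no pairs, and precision is limited by the 12 libraries and, for low counts, by depth. No paired analysis was possible because the window labels carry time points and no shared replicate.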

Other observations

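Among genes outside the lists, several that fell late had been well above these levels at the start of the course. NPAS3, a transcription factor of neural development, went from 429 to 744 (median 556) to 327 to 415 (median 368) with no overlap, against a mean of 2410 at 0 to 10 min. LRIG1, which restrains receptor tyrosine kinases, went from 199 to 327 (median 260) to 135 to 194 (median 160), against 1340. THRB, a thyroid hormone receptor, had medians of 483 and 347 against 966, and MAP2K6, a kinase upstream of p38, medians of 440 and 327 against 1590. TSC22D1 had medians of 1930 and 1380 against 5120. In these 5 genes every later library was below every earlier one, and the trend fell in both fits, by 0.64, 0.68, 0.50, 0.47 and 0.47 log2 per 60 min without the GC correction.

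Other late movers had been low at the start. NFATC2 had a mean of 42.2 at 0 to 10 min, a highest count of 1520 at 170 min, and medians of 965 and 628 in the windows. RCAN1 had a mean of 1210 at 0 to 10 min, a highest count of 8920 at 230 min, and medians of 7440 and 5030. Rising genes with a low start were DNER, with a mean of 22.9 at 0 to 10 min and medians of 214 and 289, SEMA7A, with a mean of 27.2, and WWC1, with 41.6 and medians of 335 and 441.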
